A study of Arabidopsis thaliana with 10 samples.

Results

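Prohibitins are membrane proteins that assemble into large ring complexes in the inner mitochondrial membrane, where type I and type II subunits alternate. In yeast and animal cells these rings hold membrane proteins in place and bind the m-AAA proteases, which degrade unassembled inner-membrane proteins. In Arabidopsis, PHB3, PHB4 and PHB5 are the type I subunits and PHB1, PHB2, PHB6 and PHB7 the type II subunits. Prohibitin genes are known for high expression in dividing tissue, and plants without PHB3 grow slowly.

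The family was taken as the 7 loci PHB1 to PHB7, matched by the locus or transcript that the array annotation gives each probe. It had 13 probes, of 34290 genes and 43603 probes on the array, and 6 of the 7 genes were among the 23659 genes measured well enough to be tested. To be tested, a gene needed a brightest probe that the scanner software marked as well above background on 5 or more arrays out of 10. The family was chosen by its gamma against mock values, so those values describe its members and test nothing. Standard errors and intervals beside them show the precision of an estimate, and a count past the threshold is read only as a count.

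All plants were wild-type Arabidopsis thaliana of the ecotype Col-0, 14 days old and grown on sucrose-containing medium, and whole seedlings were harvested. The gamma group had received 200 Gy of gamma radiation from a cobalt source at 50 Gy per h for 4 h and was sampled 24 h after exposure. The mock group was mock-exposed and sampled at the same time point. Each of 5 experiments, run on different days with independent plants, gave 1 gamma array and 1 mock array, hybridised with a single dye (Cy3), and the titles place experiments 1 and 2 in an earlier year than experiments 3 to 5.

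Each array detected 71.7% to 76.6% of its probes above background, with 0 saturated spots. The 3 genes used to check the irradiation labels, the cell-cycle inhibitor SMR7 and the DNA repair genes PARP2 and BRCA1, all rose, SMR7 by 52.9-fold (log2 change 5.73 ± 0.13, SE, limma adjusted p = 6.41e-05). All 5 leaf markers and all 7 root markers were detected on at least some arrays. Signal is given here as relative signal, the processed signal divided by the 75th percentile of its array, and one probe's level is not set against another's.

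PHB4 stood at 0.747-fold and PHB1 at 0.787-fold of mock in gamma seedlings, while PHB3, PHB6 and PHB2 were lower by smaller amounts. Their log2 changes came from the paired limma fit over all genes. All 6 measured members were lower in gamma than in mock in 5 of 5 experiments, as were 13.5% of all genes tested, and 53.8% of all genes tested had an estimate below 0. As a count, 2 of the 6 members (PHB4 and PHB1) lay past the adjusted threshold of 0.05 and lower, against 2.37% of all genes tested (1.71% were higher and 4.08% in either direction). That count of members was 0 or 1 with any 1 experiment left out, 0 without the experiment as a block and 3 with it as a random block. The members' median log2 change was -0.28, against -0.02 over all genes. Since this contrast chose the family, nothing is read from these counts. In whole seedlings, fewer cells of a type and less RNA per cell cannot be told apart.

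Among the type I subunits, PHB4 (AT3G27280, chromosome 3) had relative signals of 1.51, 1.81, 1.51, 1.48 and 1.33 in the gamma arrays of experiments 1 to 5, against 1.89, 2.35, 2.15, 2.05 and 1.79 in the mock arrays. In 4 of the 5 gamma arrays it was below every mock array, and only the gamma array of experiment 2 reached into the mock range. For this count, and the same count in PHB3, PHB2 and PHB6, the share over all genes was not taken, so it is a description only. The means were 1.53 ± 0.17 in gamma and 2.05 ± 0.22 in mock (SD, n = 5 each). The log2 change was -0.42 ± 0.05 (SE), with a 95% confidence interval of -0.55 to -0.29. The differences within experiments lay between -0.51 and -0.32. Over all alternatives the log2 change lay between -0.45 and -0.40.

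A second PHB4 probe, which was not used in the fit of genes, gave 0.450 to 0.552 in gamma and 0.622 to 0.786 in mock, without overlap. The share of all probes without overlap was not taken, so that is a description only. Its log2 change was -0.43 ± 0.08 (SE), the same direction and nearly the same size as for the brighter probe. Whether probes of this family cross-hybridise between its members was not tested, as probe sequences were not used here.

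PHB3 (AT5G40770, chromosome 5), the type I subunit known for slow growth when lost and linked to nitric oxide and salicylic acid, had relative signals of 3.23, 4.07, 3.29, 3.49 and 3.17 in the gamma arrays of experiments 1 to 5. The mock arrays gave 3.64, 4.18, 4.01, 3.99 and 4.05. The gamma array of experiment 2 lay above 4 of the 5 mock arrays, and the other 4 gamma arrays were below every mock array. Means were 3.45 ± 0.37 in gamma and 3.98 ± 0.20 in mock (SD, n = 5 each), with a log2 change of -0.21 ± 0.06 (SE; 95% interval -0.36 to -0.06). The 3 PHB3 probes did not move alike. The second had a log2 change of -0.15 ± 0.07 (SE) and was higher in gamma in 1 of 5 experiments. The last, a dim probe with relative signals of 0.0729 to 0.0978 in gamma and 0.0723 to 0.0986 in mock, had 0.05 ± 0.06 (SE) and was higher in gamma in 4 of 5. Averaged over its 3 probes, the PHB3 change was -0.10.

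PHB5 (AT5G14300, chromosome 5), a close relative of PHB3 and PHB4, was well above background on 0 of the 10 arrays. Its relative signals were 0.00108 to 0.00466 in gamma and 0.0018 to 0.00575 in mock, so it was not well above background in either group and no fold is given.

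Among the type II subunits, PHB1 (AT4G28510, chromosome 4) was the member whose groups did not overlap on the brightest probe. Its relative signals were 1.44, 1.73, 1.46, 1.61 and 1.53 in the gamma arrays of experiments 1 to 5, and 1.74, 2.22, 1.94, 1.84 and 2.15 in the mock arrays. The highest gamma array, 1.726 in experiment 2, was just below the lowest mock array, 1.736 in experiment 1, and 2.04% of all genes tested had groups without overlap in either direction. Means were 1.55 ± 0.12 in gamma and 1.98 ± 0.20 in mock (SD, n = 5 each), with a log2 change of -0.35 ± 0.06 (SE; 95% interval -0.50 to -0.20). Over all alternatives it lay between -0.39 and -0.31.

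PHB2 (AT1G03860, chromosome 1) had relative signals of 2.04, 2.29, 2.01, 2.01 and 1.87 in the gamma arrays of experiments 1 to 5 and 2.09, 2.35, 2.26, 2.32 and 2.19 in the mock arrays. In 4 of the 5 gamma arrays it was below every mock array. The difference was the smallest among the measured members, with a log2 change of -0.13 ± 0.06 (SE; 95% interval -0.27 to 0.004). In experiments 1 and 2 it was -0.04 and -0.03, and in experiments 3 to 5 it lay between -0.23 and -0.17. Its other probes had log2 changes of -0.14 ± 0.05 and -0.06 ± 0.07 (SE), the last higher in gamma in 1 of 5 experiments.

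PHB6 (AT2G20530, chromosome 2) had relative signals of 3.04, 3.43, 2.55, 2.95 and 2.75 in the gamma arrays of experiments 1 to 5 and 3.13, 3.66, 3.05, 3.18 and 3.37 in the mock arrays. In 4 of the 5 gamma arrays it was below every mock array. The margin was thin for experiment 1, with 3.042 in gamma against the lowest mock array, 3.048 in experiment 3. The log2 change was -0.16 ± 0.06 (SE; 95% interval -0.31 to -0.01), and the second probe gave -0.15 ± 0.07 (SE).

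PHB7 (AT5G44140, chromosome 5) was dim, and 1 experiment carried most of its difference. Its relative signals were 0.0322, 0.0297, 0.0302, 0.0192 and 0.007 in the gamma arrays of experiments 1 to 5 and 0.155, 0.0416, 0.0355, 0.0209 and 0.00919 in the mock arrays. The mock array of experiment 1 stood far above the other 9 arrays, and the gamma array of experiment 5 was not well above background. The log2 change was -0.70 ± 0.32 (SE; 95% interval -1.47 to 0.07), against -0.31 without experiment 1 and -0.43 with the normexp background correction.

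**Figure D1:**
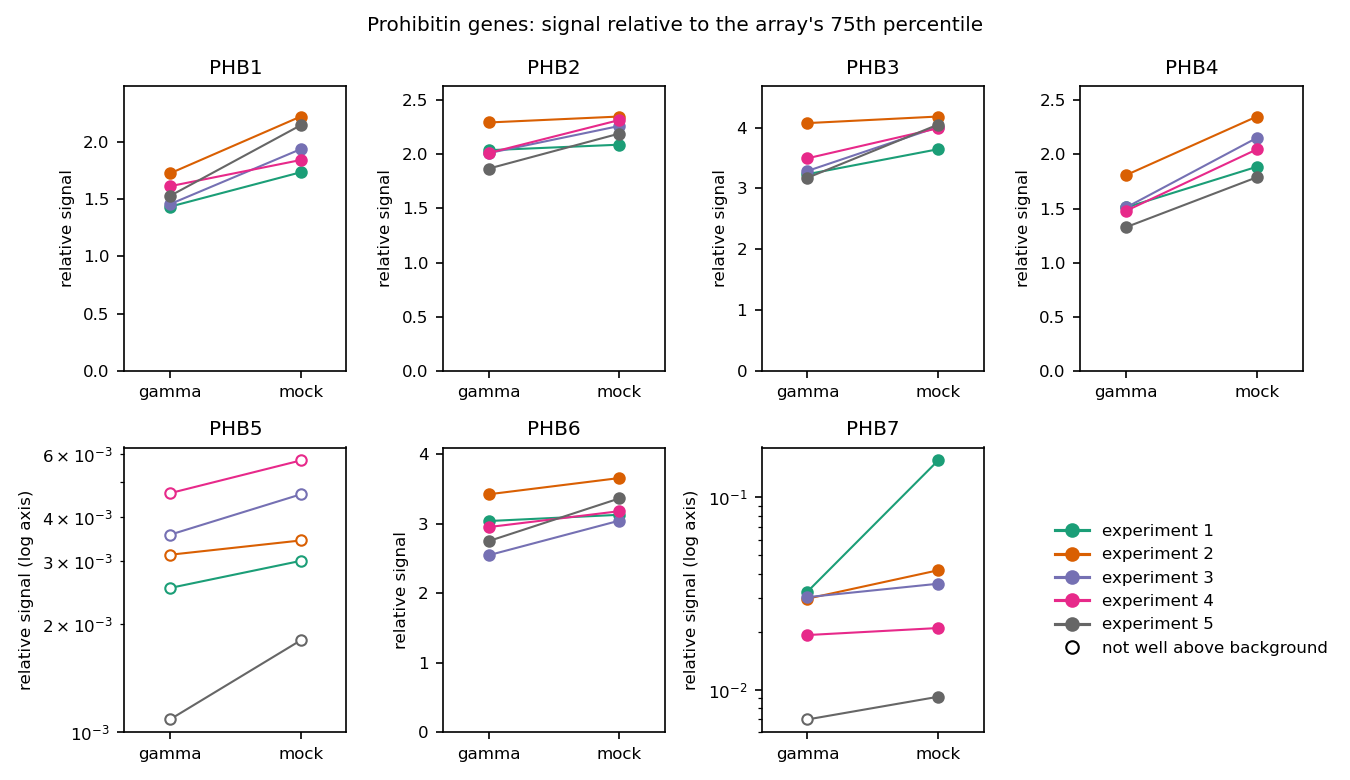
Relative signal (processed signal divided by the 75th percentile of the array) of each prohibitin gene's brightest probe in every array, gamma left of mock, with lines joining the 2 arrays of an experiment, open points where the probe was not well above background, and log axes for PHB5 and PHB7. PHB1 gamma arrays lie at 1.44 to 1.73 and mock arrays at 1.74 to 2.22, and the PHB7 mock array of experiment 1 stands apart at 0.155.

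**Figure D2:**
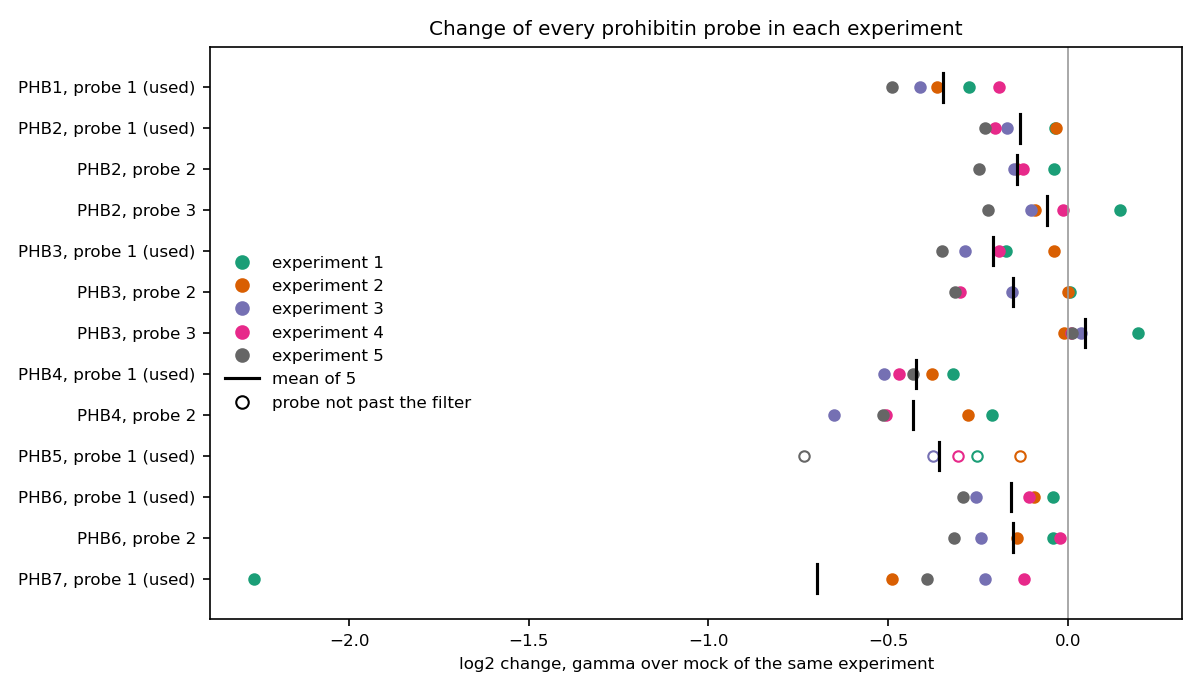
Log2 difference between gamma and mock for all 13 prohibitin probes, with the 5 experiments as points (open for the PHB5 probe, which did not pass the filter) and the mean as a black line. Both PHB4 probes lie below 0 in 5 of 5 experiments, and the dim last PHB3 probe lies near 0.

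The level of a member, averaged on the log2 scale over the gamma and mock arrays of an experiment, does not use the gamma contrast. Differences between experiments were therefore tested (limma F test of the experiment terms, adjusted over all genes). The F test shares its residual variance with the gamma fit, so its p-values are not wholly free of the choice of members. The range of the 5 experiment means was below the median of all genes for 5 of the 6 members. It was 1.15-fold for PHB2, 1.20-fold for PHB3, 1.24-fold for PHB1, 1.27-fold for PHB6 and 1.34-fold for PHB4, against a median of 1.55-fold over all genes tested. PHB2 had a smaller range than all but 3.87% of genes. These 5 members were well above background on all 10 arrays, whereas a tested gene needed only 5. Their ranges were not compared with those of genes of like signal. For PHB1, PHB2, PHB3, PHB4 and PHB6 the highest mean was in experiment 2, and the share of all genes highest there was not taken. Leaving out the highest mean narrows the range of any gene, so nothing is read from that narrowing. Without experiment 2 all 5 ranges were more than 1.5 times smaller. On the log2 scale they were then 0.09 for PHB2, 0.12 for PHB3, 0.15 for PHB6, 0.20 for PHB1 and 0.23 for PHB4, against 0.20, 0.27, 0.35, 0.31 and 0.42 with it.

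PHB4 and PHB7 differed between experiments and the other 4 members did not pass, so 2 of 6 were called, against 56.2% of all genes tested. Each experiment had its own slide and scan, so a difference between plants cannot be told apart from one between slides or scans. Means of an experiment were taken on the log2 scale and turned back to relative signal (geometric means). For PHB4 they were 1.69, 2.06, 1.80, 1.74 and 1.54 in experiments 1 to 5 (limma adjusted p = 0.0398). PHB7 had geometric means of 0.0706, 0.0351, 0.0327, 0.02 and 0.00802 in the same experiments (limma adjusted p = 0.0182). Its lowest mean, in experiment 5, includes a gamma array on which the probe was not well above background, so no fold is given for its range. On the log2 scale the range was 3.14, against 1.82 without experiment 5, 2.13 without experiment 1 and 1.43 with normexp. The PHB7 call was lost without experiment 5 (limma adjusted p = 0.153), and with normexp (0.0651). PHB4 lost its call without experiment 1, 2, 3 or 5, without the filter, and with the mean of its probes, where its range was 0.11 (log2) instead of 0.42. For the members that did not pass, limma adjusted p lay between 0.117 for PHB6 and 0.356 for PHB2.

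**Figure D3:**
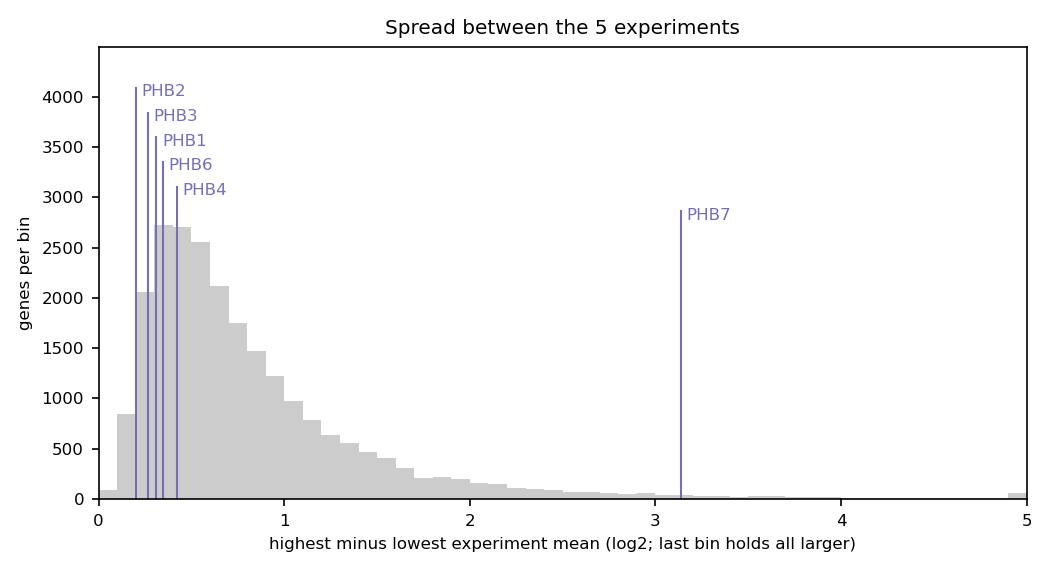
Distribution over all 23659 genes tested of the range of the 5 experiment means on the log2 scale, with the 6 measured prohibitin genes marked. PHB2 at 0.20 is lowest of the 6 and PHB7 at 3.14, whose lowest mean includes an array not well above background, is far to the right.

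The gamma change of a member was also compared between the later experiments (3 to 5) and the earlier ones (1 and 2). This comparison uses the same differences within experiments that the family was chosen by. A choice by steady differences favours small differences between periods, so the counts and intervals describe the members and test nothing. The limma interaction test, adjusted over all genes, called 0 of 6 members and 0.00423% of all genes tested. At an unadjusted p under 0.05 it was 0 of 6 members and 10.5% of all genes. PHB4 changed by -0.47 in the later and -0.35 in the earlier experiments, a difference of -0.12 ± 0.10 (SE; 95% interval -0.38 to 0.13). PHB2 changed by -0.20 in the later and -0.03 in the earlier experiments, a difference of -0.17 ± 0.10 (SE; 95% interval -0.41 to 0.08). PHB7 had the widest interval, -0.15 to 2.41 for a difference of 1.13 ± 0.51 (SE), and that difference was 0.24 without experiment 1 and 2.02 without experiment 2. The earlier period had 2 experiments, and these intervals are wider than the changes themselves. The 0 calls therefore do not show that the change was the same in both periods.

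Prohibitin genes were set beside every other gene by the root mean square difference of their log2 values over the 10 arrays, each gene first centred on its own mean. This measure includes the gamma contrast, so it is given as a description, over 10 arrays that share their experiments. The measure is not scaled to the spread of a gene. Genes of small spread therefore lie near one another whatever their pattern, and a gene of wide spread lies far from them. The log2 range of experiment means was 3.14 for PHB7 and 0.20 to 0.42 for the other measured members. Among the 8908 genes with a symbol, the gene nearest to PHB3 was PHB2, at 0.06, against a median of 0.31 over all genes tested. With gamma and mock means removed, PHB2 ranked 2 of 23658 other genes for PHB3, at 0.05. With those means removed, PHB3 was rank 25 for PHB1, rank 72 for PHB6 and rank 221 for PHB4, and PHB6 was rank 123 for PHB1. Some pairs were further apart. PHB4 was rank 1606 for PHB1 and rank 758 for PHB6, while PHB1 was rank 1677 and PHB6 rank 955 for PHB4. PHB7 was at rank 23024 or beyond for each of the other measured members.

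For PHB4, the 5 nearest genes with a symbol were MTSSB, a mitochondrial single-stranded DNA-binding protein, CSLA02, a glucomannan synthase, PPR596, a mitochondrial pentatricopeptide repeat protein, ORP1A, related to oxysterol-binding proteins, and TBL35, of the xylan acetylation family. Their differences from PHB4 were 0.09 to 0.11, against a median of 0.36 over all genes tested. Since nearness to PHB4 uses the gamma contrast, their log2 changes are given without a test, -0.34 ± 0.06 for MTSSB, -0.35 ± 0.06 for CSLA02 and -0.40 ± 0.09 for PPR596 (SE). The nearest gene was the exosome subunit RRP4 for PHB1, the augmin subunit AUG7 for PHB2, the translation initiation factor TIF3B1 for PHB6 and TGG3 for PHB7, the last at 0.60 and so not close.

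Lists of genes around the prohibitin complex held few calls. An unadjusted p under 0.05 was reached by 22% of all genes tested, and an adjusted p under 0.05 by 4.08%. Of 7 mitochondrial proteases, 1 rose and 6 did not pass, with a median log2 change of 0.11. The one that rose was OMA1, a metallopeptidase of the inner membrane, with 1.25 ± 0.17 in gamma and 0.856 ± 0.068 in mock (SD, n = 5 each), a log2 change of 0.54 ± 0.06 (SE, limma adjusted p = 0.0112). It was higher in gamma in 5 of 5 experiments, as were 10.2% of all genes tested, and its call was lost without experiment 3 (limma adjusted p = 0.0612) or 4 (0.0577), and without the experiment as a block (0.102). FTSH3 and FTSH10, the m-AAA proteases that bind prohibitins, had log2 changes of 0.10 and 0.15 and did not pass. FTSH4, an i-AAA protease of the inner membrane, had 0.18 ± 0.06 (SE, limma adjusted p = 0.167).

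Of 10 other genes with the SPFH domain that prohibitins carry, 0 were called and 4 had an unadjusted p under 0.05. The median log2 change was 0.06, and HIR4, a plasma membrane protein of this group, had 0.22 ± 0.05 (SE, limma adjusted p = 0.0777). HIR4 here is the locus AT5G62740, which the gene annotation used names HIR1. The ERLIN-like gene AT2G03510 had 0.19 ± 0.05 (SE, limma adjusted p = 0.104). Of 7 mitochondrial chaperones 0 were called and 2 had an unadjusted p under 0.05. All 7 estimates lay below 0, as did 53.8% of all genes tested, but MGE1 (-0.0007) and mtHSC70-2 (-0.01) were close to 0. HSP60-3B, a chaperonin subunit, had -0.31 ± 0.06 (SE, limma adjusted p = 0.0547), and mtHSC70-1 had -0.25 ± 0.05 (SE, limma adjusted p = 0.0616). With normexp both passed (0.0445 and 0.0375), and HSP60-3B also passed with a random block (0.0135), with all 10 arrays required (0.0465) and without experiment 2 (0.0488).

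Mitochondrial import had 18 measured genes, of which 0 were called and 5 had an unadjusted p under 0.05. Its median log2 change was -0.09, with 14 estimates below 0 and 4 above. TOM40-1, the channel of the outer membrane, had -0.27 ± 0.06 (SE, limma adjusted p = 0.0646) and was lower in gamma in 5 of 5 experiments, while TIM17-1, an inner-membrane translocase subunit, had 0.77 ± 0.18 (SE, limma adjusted p = 0.0696) and was higher in 4 of 5. Without experiment 2 both passed (0.046 and 0.0158), and with a random block 3 genes of the list did. Of 19 respiratory chain and ATP synthase genes, 0 were called and 0 had an unadjusted p under 0.05, with a median of 0.04. SDH2-1 of complex II had the smallest p of that list (0.16 ± 0.08, SE, limma adjusted p = 0.277), followed by the ATP synthase subunit gene ATPO (0.15 ± 0.08, SE, limma adjusted p = 0.323).

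Of 18 measured mitochondrial stress genes 0 were called and 1 had an unadjusted p under 0.05, with a median of -0.13. UPOX, a mitochondrial protein induced by oxidative stress, was higher in gamma by 1.57, 1.54 and 1.33 (log2) in experiments 3 to 5 but by 0.18 and -0.05 in experiments 1 and 2 (log2 change 0.91 ± 0.28, SE, limma adjusted p = 0.137). Among the alternative oxidases, AOX1C had 0.51 ± 0.22 (SE, limma adjusted p = 0.245) and AOX1A had -0.15 ± 0.25 (SE). Of 5 measured genes linked to PHB3, 0 were called and 1 had an unadjusted p under 0.05. ERF114, a regulator of root and shoot growth, had 0.69 ± 0.17 (SE, limma adjusted p = 0.0812), the nitrate reductase gene NIA1 had -0.20 ± 0.09 (SE, limma adjusted p = 0.269), and the salicylic acid synthesis gene ICS1 had -0.34 ± 0.23 (SE). ERF115 was well above background on 0 of 10 arrays.

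Of 8 mitosis markers on the same arrays, 4 fell (CYCB2;1, KNOLLE, CYCB1;2 and AUR1) and 4 did not pass. Over all genes tested, 2.37% were called lower. The 8 markers had a median log2 change of -0.62, and all 8 were detected on 10 arrays. They were picked with earlier results of these data known, so their count describes these 8 genes only. The B-type cyclin CYCB2;1 fell by 0.88 on the log2 scale (limma adjusted p = 0.0148), and the cytokinesis syntaxin KNOLLE fell by 0.80 (limma adjusted p = 0.0164). The kinase CDKB1;1 lay the other way at 0.13 ± 0.11 (SE), higher in gamma in 3 of 5 experiments, and CDKB2;2 had -0.22 ± 0.11 (SE), lower in 3 of 5. The summed relative signal of the 8 markers was 1.73 to 3.69 in gamma and 3.39 to 5.33 in mock. The part of these markers in the prohibitin values was not tested. The number of markers called was 0 without experiment 1 or 4, 1 without experiment 3, 2 without experiment 5, 2 without the filter and 0 without the experiment as a block.

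Leaf and root markers had 0 calls among 5 and 7 genes, with 0 and 2 at an unadjusted p under 0.05. Summed leaf markers were 689 to 1145 in gamma and 636 to 1135 in mock, and summed root markers 66.8 to 101.8 in gamma and 57.2 to 94 in mock. The median log2 changes were -0.01 for leaf and -0.07 for root markers. The light-harvesting genes LHCA4 and CAB1 had log2 changes of -0.05 ± 0.09 and -0.04 ± 0.09 (SE), and both signs turned under other settings, LHCA4 with normexp and CAB1 with quantile normalisation. The root endodermis gene CASP1 had -0.45 ± 0.12 (SE, limma adjusted p = 0.0967) and the root beta-glucosidase PYK10 had 0.28 ± 0.07 (SE, limma adjusted p = 0.09).

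**Figure D4:**
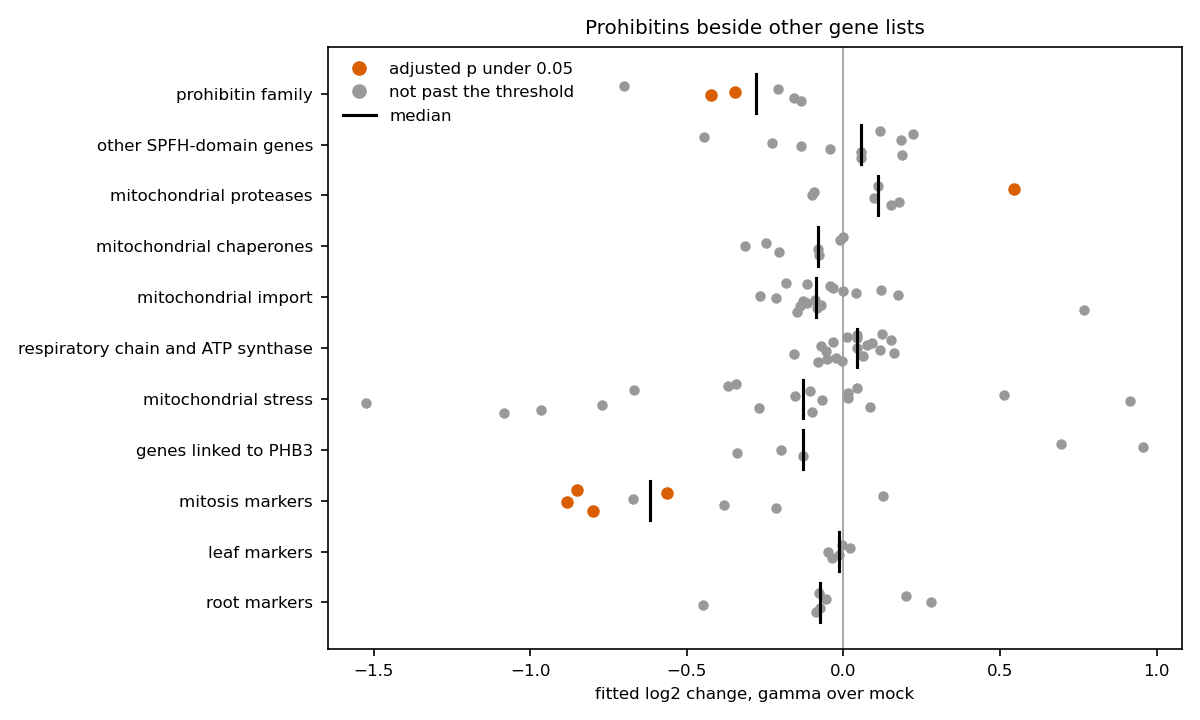
Log2 change between gamma and mock of each measured gene in every list, with the median of each list marked. Prohibitin values lie between -0.70 and -0.13, mitosis markers have a median of -0.62, and OMA1 stands highest among the proteases at 0.54.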

How the data were processed

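The scanner files hold linear intensity per probe, background-subtracted and detrended by the authors' run of Agilent Feature Extraction 11.0.1.1, per the file headers; the submitters' processing notes name version 9.1. Scaling between arrays is not given in the sources used here. The deposited value table holds linear ratios; how the authors centred and scaled it is not recorded, but for 77.7% of probes the median over arrays was 1 within 1e-04, and each column followed the scanner values with r of at least 0.995. Its column medians for experiments 1 to 5 were 0.967, 0.960, 0.967, 0.992 and 0.925 in gamma and 0.969, 0.963, 0.959, 0.974 and 0.925 in mock. It served as an alternative.

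Processed signals were divided by each array's 75th percentile and taken to log2; outlier-flagged spots were left out, 6 genes with such a spot were not fitted, and 1 probe per gene, the brightest on average, was kept when well above background on at least 5 arrays. Normexp used median signals with an offset of 50. R 4.3.3 and limma 3.58.1 fitted gamma with the experiment as a block, Benjamini-Hochberg over all genes at 0.05, tested on simulated data. The planted changes were larger than those of any member, so recovery of changes as small as theirs was not examined. Gamma and mock arrays of an experiment deviated together (r 0.737, 0.562, 0.775, 0.739 and 0.894 for experiments 1 to 5, across genes, which are not independent), each array best with its own partner, and shared 1 slide and scan. Pairing comes from the run named in the titles. Named genes were all members and their probes, the 2 genes of smallest p in each other list, and the genes most like a member; other genes were named after their values were seen. Members and lists were chosen with earlier results of these data known. The number of arrays limits the precision.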

Additional observations from a re-analysis of the deposited data

Results flagged for a closer look

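The PHB7 difference between gamma and mock in experiment 1, -2.26 on the log2 scale, stood apart from the other 4 experiments, which lay between -0.49 and -0.12. Its gap to the nearest of them took up 0.828 of the whole range of the 5 differences. Among the 52 groups of values examined this way, chance flags about 1 in 20.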

How the results depend on the processing

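Every measured prohibitin gene kept a log2 change below 0 in gamma under each alternative that gave a value. PHB4 ranged from -0.45 to -0.40, PHB1 from -0.39 to -0.31, PHB3 from -0.25 to -0.10, PHB6 from -0.19 to -0.13, PHB2 from -0.16 to -0.11 and PHB7 from -0.84 to -0.31; PHB7 gave no value when all 10 arrays had to be well above background. In gamma against mock 965 genes were called, against 142 without the experiment as a block (no pairing), 1920 with a random block and 328 without the filter, and leaving out 1 experiment gave 181 to 1023. Of the members, 2 were called, against 0 without the block, 1 with array median scaling, 1 with the deposited table, 1 without the filter, 3 with a random block and 0 to 1 when 1 experiment was left out. Between experiments, 2 members were called, but 1 with normexp, 1 without the filter, 1 with all 10 arrays required, 1 with the mean of probes, and 0 to 2 with an experiment left out; of all genes 13304 were called, 5521 to 15569 with an experiment left out and 18360 without the filter. A random block also called 1 gene each of the other SPFH-domain and mitochondrial stress lists and 2 root markers, and normexp 1 gene linked to PHB3. Later against earlier, 1 gene was called, 17 with median scaling, 2 with quantile normalisation, 44 with normexp, 17 with the deposited table, 0 without the filter, 13 with all 10 arrays required and 0 to 617 without an experiment. PHB1's later minus earlier difference, -0.04, turned to 0.0166 with median scaling and 0.0165 with the deposited table, and lay between -0.13 and 0.0184 with 1 experiment left out (0.00103 without experiment 1, 0.0184 without experiment 5). The leaf marker CAB1, -0.04, turned to 0.0156 with quantile normalisation and lay between -0.0853 and 0.0488 with 1 experiment left out; LHCA4, -0.05, turned to 0.0396 with normexp and lay between -0.11 and 0.0321. Both were above 0 without experiment 2. The causes were not tested. The slide block is the experiment block, so it gave no separate value. Likeness with group means removed was chosen after seeing the data.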
